A study of Mus musculus with 6 samples.

Results

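The MEF2 factors and the class IIa histone deacetylases (HDACs) that bind them were described in C2C12 cells with and without 2 forms of the SWI/SNF chromatin remodelling enzymes. The 8 genes were taken by symbol from both of the authors' comparison tables: Mef2a, Mef2b, Mef2c and Mef2d, and Hdac4, Hdac5, Hdac7 and Hdac9. They are 8 of 27179 genes listed, and all 8 have a value in both tables. C2C12 is an immortalised mouse myoblast line, and RNA was harvested 48 h after the change to low-serum medium with horse serum and insulin. Each of 3 groups had 2 libraries: a non-targeting scrambled shRNA, an shRNA against BAF250A (the product of Arid1a, a subunit of the BAF form) and an shRNA against BRD9 (a subunit of the ncBAF form), each stably transfected. All groups share the parental line and the medium. The submitters describe the duplicates as biological, and nothing in the labels says whether a line is 1 clone or a pool; BAF180 libraries were not analysed here. The p-values therefore rest on 2 libraries per group, and whether they cover the spread between separately made lines is not known. The series' title states the question, whether muscle differentiation needs the BAF and ncBAF forms differently.

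MEF2 proteins are MADS-box transcription factors that bind an AT-rich site in the control regions of muscle genes and act with the myogenic bHLH factors. Class IIa HDACs bind the MADS/MEF2 domain and recruit corepressors to it, and calcium-dependent and other kinases phosphorylate them so that 14-3-3 proteins hold them in the cytoplasm. MEF2 also switches on Hdac9, which returns as its repressor, and differentiating myoblasts are known for a rise in MEF2C.

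The windows around the RefSeq transcription starts show the sequence these genes carry at their own promoters. RefSeq (GRCm38.p6) gave 14 windows of 300 bases for the 8 genes, 250 before and 50 after a start. The MEF2 consensus site was searched for on both strands and stood in 2 of the 14 windows, against 3.19% of all 32851 windows. Those 2 belong to Mef2a and Hdac5, and the site is in capitals here. The Mef2a window lies at chr7:67372809-67373108 on the minus strand and the Hdac5 window at chr11:102230123-102230422 on the minus strand.

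Mef2a: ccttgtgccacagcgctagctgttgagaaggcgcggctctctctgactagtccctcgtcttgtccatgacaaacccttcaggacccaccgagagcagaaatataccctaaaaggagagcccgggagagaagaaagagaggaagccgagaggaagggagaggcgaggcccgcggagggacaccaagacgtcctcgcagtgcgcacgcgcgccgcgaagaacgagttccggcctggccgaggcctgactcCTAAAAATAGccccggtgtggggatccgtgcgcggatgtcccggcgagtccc
Hdac5: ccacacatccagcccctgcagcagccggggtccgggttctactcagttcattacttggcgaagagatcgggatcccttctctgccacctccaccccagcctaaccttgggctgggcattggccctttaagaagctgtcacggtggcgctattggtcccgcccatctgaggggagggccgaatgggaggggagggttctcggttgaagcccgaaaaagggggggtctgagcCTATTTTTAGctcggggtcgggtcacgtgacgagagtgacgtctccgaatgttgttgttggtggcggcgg

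The site began at base 249 of the Mef2a window and at base 231 of the Hdac5 window, counted from the 5′ end of the window, so in Mef2a it spans the start and in Hdac5 it lies just before it. CAGCTG, an E-box of the kind that myogenic bHLH factors bind, was found on either strand in 3 of 14 windows, against 16.3% of all windows. Both starts of Hdac9 carry it, in capitals below, at chr12:34917046-34917345 (outer start) and chr12:34528840-34529139 (inner start), both on the minus strand. The third such window is one of the 4 of Hdac7.

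Hdac9 outer start: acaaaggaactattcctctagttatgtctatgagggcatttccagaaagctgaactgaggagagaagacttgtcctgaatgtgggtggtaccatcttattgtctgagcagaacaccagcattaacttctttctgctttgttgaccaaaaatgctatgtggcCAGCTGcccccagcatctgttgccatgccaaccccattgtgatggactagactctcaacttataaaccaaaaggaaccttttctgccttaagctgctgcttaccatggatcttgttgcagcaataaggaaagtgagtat
Hdac9 inner start: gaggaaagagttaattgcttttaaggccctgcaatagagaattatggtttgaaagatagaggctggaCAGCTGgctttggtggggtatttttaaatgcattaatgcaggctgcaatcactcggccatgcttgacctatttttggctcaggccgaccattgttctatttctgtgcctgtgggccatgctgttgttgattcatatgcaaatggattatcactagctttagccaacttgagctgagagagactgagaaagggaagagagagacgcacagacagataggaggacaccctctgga

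Mef2c and Mef2d, the MEF2 genes called lower with BAF250A, have unlike promoter windows. The first Mef2c window (chr13:83503784-83504083, plus strand) is 35.7% G and C with 1 CG pair, and its CANNTG matches are in capitals. It is the lowest of the Mef2c windows. The others are 47% G and C with 10 CG pairs and 1 GGGCGG match, and 48.3% with 4 CG pairs. The Mef2d window (chr3:88142122-88142421, plus strand) is 72% G and C with 24 CG pairs, and its matches to GGGCGG on either strand are in capitals. The median over all windows is 52.7% G and C with 7 CG pairs. CANNTG, which includes CAGCTG, stands in 72.3% of all windows and GGGCGG in 35.7%.

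Mef2c first start: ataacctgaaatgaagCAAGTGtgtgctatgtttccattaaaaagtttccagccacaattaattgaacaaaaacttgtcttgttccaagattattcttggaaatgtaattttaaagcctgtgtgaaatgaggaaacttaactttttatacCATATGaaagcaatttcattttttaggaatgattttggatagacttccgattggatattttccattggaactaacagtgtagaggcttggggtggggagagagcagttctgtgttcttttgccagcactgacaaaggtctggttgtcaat
Mef2d: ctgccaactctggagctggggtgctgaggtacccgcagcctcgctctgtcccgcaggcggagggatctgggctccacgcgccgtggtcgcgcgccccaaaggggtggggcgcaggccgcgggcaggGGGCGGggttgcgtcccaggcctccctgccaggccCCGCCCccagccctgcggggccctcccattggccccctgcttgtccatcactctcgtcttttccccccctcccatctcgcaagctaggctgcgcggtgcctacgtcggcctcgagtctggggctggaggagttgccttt

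A match is a description of these letters and not a bound site. Binding and chromatin were not analysed here.

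Whole reads per library were recovered from the 2 deposited tables for 26682 of 27179 genes, all 8 members included, because a mean of size-factor-divided reads, a fold change and an error from 1 model leave a single set of whole numbers. For genes of low mean only the mean was used. Among the members this applies to Mef2b for both knockdowns and to Mef2c for BAF250A. The 2 libraries present in both tables are the scrambled ones, and libraries are numbered 1 and 2 within a group by size factor, the larger first; which carries the label A or B is not known. The resolved genes held 33293054 and 28527979 reads in the scrambled libraries and 19435353 to 20450977 in the 4 knockdown libraries. The targeted genes checked the labels: Arid1a stood at 6440 and 3306 normalised reads in the scrambled, 1262 and 992 in the BAF250A and 4102 and 4168 in the BRD9 libraries. Brd9 stood at 788 and 1048, 971 and 925, and 181 and 361 in the same order. Features of the libraries touch every comparison with the scrambled shRNA. Among genes with 51 to 200 reads, 48.9% to 51.2% of counts were even in the scrambled libraries and 67.3% to 69.2% in the knockdown libraries, so a difference in how reads arose or were counted and the knockdowns cannot be told apart. The scrambled libraries also differed from each other along transcript length, with a Spearman rho of 0.561 across 10521 genes between length and the log2 ratio of library 1 over library 2, against 0.0545 for the BAF250A and 0.321 for the BRD9 pair. Across 11071 genes with a mean of 100 normalised reads or more, log2 levels correlated with r = 0.872 between the scrambled libraries, 0.988 between the BAF250A and 0.945 between the BRD9 libraries. Between a scrambled and a knockdown library r was 0.556 to 0.672, and between a BAF250A and a BRD9 library 0.871 to 0.887. These are correlations across genes, which are not replicates.

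In the BAF250A libraries 2 of 4 MEF2 genes, Mef2c and Mef2d, were called lower than in the scrambled libraries. Of the 4 HDAC genes Hdac4 and Hdac7 were called higher and Hdac9 lower. At an adjusted p of 0.05 the authors' deposited table (DESeq2 Wald test) called 5 of 8 members, 2 upward and 3 downward, where 28.7% of 16450 genes tested passed, 11.2% higher and 17.5% lower. With BRD9 knockdown 1 of 8 passed in the authors' deposited table, Hdac9, which was lower, where 14.4% of 17198 genes passed, 5.11% higher and 9.33% lower. The 2 comparisons share the scrambled libraries, so their values are not independent of each other. The difference between the knockdowns, taken from both fold changes, passed for 1 of 8 members, Mef2c, where 2.54% of 16311 genes passed, 1.99% lower and 0.552% higher with BAF250A. A limma fit on the recovered reads, added after seeing the data, called 3 of 8 for BAF250A (26.8% of 14072 genes), 0 of 8 for BRD9 (16.9%) and 2 of 8 between the knockdowns (5.24%). At an unadjusted p under 0.05 that fit had 1 of 8 for BRD9, and 4243 of 14072 genes. The median log2 fold change of the 4 MEF2 genes was -1.09 with BAF250A and -0.21 with BRD9, and that of the 4 HDAC genes was 1.18 and 0.26. Over all genes tested the medians were -0.18 and -0.15.

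**Figure D1:**
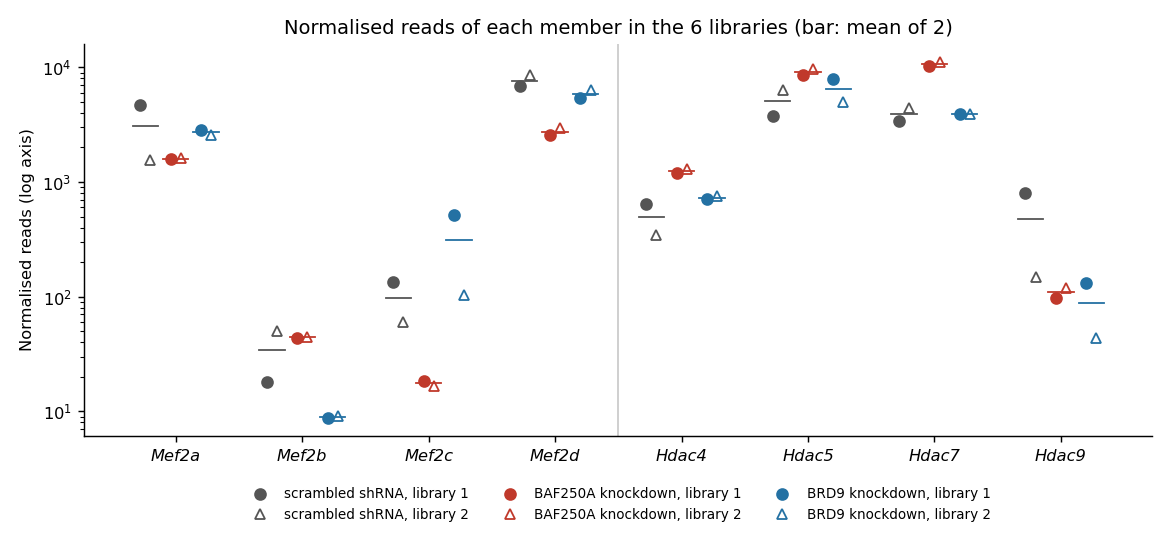
Normalised reads (reads divided by a median-of-ratios size factor over 6 libraries) of the 8 genes on a log axis, filled circles for library 1, open triangles for library 2 and a bar for the mean of 2. The BAF250A libraries lie close together for every gene, the scrambled libraries lie apart for Mef2a, Mef2b, Mef2c and Hdac9, and the BRD9 libraries lie apart for Mef2c and Hdac9.

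Mef2c (chr13:83504034-83667080, plus strand), the family member known for its rise in differentiating muscle, held 214 and 65 reads in the scrambled libraries, 16 and 14 in the BAF250A libraries and 477 and 90 in the BRD9 libraries. Normalised, these are 134 and 60.4, 18.5 and 16.7, and 519 and 103. Both BAF250A libraries lay below all others, and the BRD9 libraries overlapped the scrambled ones, since BRD9 library 2 lay between them. The log2 fold change in the authors' deposited table was -2.23 (SE 0.69, adjusted p = 0.00654, Wald test) with BAF250A and 1.60 (SE 0.70, adjusted p = 0.12) with BRD9. From the authors' DESeq2 values the difference between the knockdowns was -3.83 (SE 0.98, adjusted p = 0.00657 over 16311 genes, two-sided normal test). Within the BRD9 pair the reads differed 5.04-fold, a wider gap than in 96.1% of the 1987 genes within 2-fold of its mean. A limma fit on the recovered reads gave -2.35 (SE 0.95, adjusted p = 0.091) against the scrambled shRNA with BAF250A, which ended that call (limma-trend kept it, at 0.048), and -3.68 (SE 0.93, adjusted p = 0.0432) between the knockdowns. The 4 knockdown libraries alone gave -3.69 (SE 1.16, limma adjusted p = 0.0892), which ended the call of the difference, as did scaling to all resolved reads (limma adjusted p = 0.11) and no filter on low reads (0.122). With 1 library left out the limma difference ran from -4.84 to -2.51 and its adjusted p from 0.0102 to 0.168: it did not pass without scrambled library 1 (0.152), scrambled library 2 (0.167) or BRD9 library 1 (0.168). The BAF250A fold change without scrambled library 1 was -1.74 (limma adjusted p = 0.406). Without BRD9 library 2 the BRD9 fold change was 2.5 (limma adjusted p = 0.041), and without BRD9 library 1 it was 0.17 (limma adjusted p = 0.925).

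Mef2d (chr3:88142372-88172086, plus strand) was the most abundant MEF2 transcript and the one whose fall held in both tests. It held 10929 and 9160 reads in the scrambled, 2212 and 2449 in the BAF250A and 4925 and 5582 in the BRD9 libraries, or 6837 and 8517, 2552 and 2929, and 5359 and 6391 normalised. The BAF250A libraries lay lowest, the BRD9 libraries next and the scrambled libraries highest, with no overlap between the groups. In the authors' deposited table the log2 fold change was -1.34 (SE 0.42, adjusted p = 0.008, Wald test) with BAF250A and -0.29 (SE 0.48, adjusted p = 0.777) with BRD9. The limma fit gave -1.48 (SE 0.36, adjusted p = 0.0104) for BAF250A, and an adjusted p of 0.177 and 0.107 with 1 or the other BAF250A library left out. Between the knockdowns the difference of the DESeq2 values was -1.05 (SE 0.64, adjusted p = 0.841, normal test), and limma on all 6 libraries gave -1.10 (SE 0.37, adjusted p = 0.124). The 4 knockdown libraries alone gave -1.10 (SE 0.21, limma adjusted p = 0.0215), which passed.

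Mef2a (chr7:67231163-67372858, minus strand), expressed in most tissues, held 7444 and 1662 reads in the scrambled, 1362 and 1341 in the BAF250A and 2619 and 2267 in the BRD9 libraries. Normalised, the scrambled libraries stood at 4657 and 1545, the BAF250A libraries at 1571 and 1604 and the BRD9 libraries at 2850 and 2595. The scrambled pair spans all other libraries, and its 3.01-fold gap was wider than in 95.2% of the 4156 genes within 2-fold of its mean. Neither knockdown passed in the authors' deposited tables, with a log2 fold change of -0.84 (SE 0.54, adjusted p = 0.247) for BAF250A and -0.13 (SE 0.58, adjusted p = 0.928) for BRD9. Centring the fold changes on housekeeping genes, a shift of 0.52, gave -1.36 for BAF250A (DESeq2 Wald adjusted p = 0.0351), which passed. The choice of scrambled library set the direction: against scrambled library 2 alone the limma fold change was 0.04 with BAF250A and 0.82 with BRD9 (adjusted p = 0.893 and 0.0371), and against library 1 alone it was -1.55 with BAF250A (adjusted p = 0.0081). Both BAF250A libraries lay below both BRD9 libraries, with a ratio of means of 0.583.

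Mef2b (chr8:70139711-70167488, plus strand) was scarce, with 29 and 54 reads in the scrambled, 38 and 37 in the BAF250A and 8 and 8 in the BRD9 libraries. Both BRD9 libraries, at 8.7 and 9.2 normalised reads, lay below the other 4, which ranged from 18.1 to 50.2. The authors' deposited table gave a log2 fold change of -1.59 (SE 0.89, adjusted p = 0.269) for BRD9 and 0.47 (SE 0.73, adjusted p = 0.68) for BAF250A. In the GENCODE annotation the gene shares exon sequence on the same strand with Borcs8, which stood at 387 to 1053 normalised reads. The RefSeq gene has 1 transcript, at 70152761-70167488, and starts past the end of Borcs8 at 70147319. The sources used here do not state which annotation was counted, so the counting of the pair is uncertain.

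Hdac7 (chr15:97792664-97844502, minus strand), a class IIa HDAC also known from thymocytes and blood vessels, had the smallest p of the members with BAF250A. It held 5410 and 4784 reads in the scrambled, 8840 and 9343 in the BAF250A and 3631 and 3409 in the BRD9 libraries. These are 3384 and 4448, 10199 and 11176, and 3951 and 3903 normalised reads, so the BAF250A pair lay above all others and the BRD9 pair lay between the scrambled libraries. In the authors' deposited table the log2 fold change was 1.54 (SE 0.42, adjusted p = 0.00196, Wald test) with BAF250A and 0.09 (SE 0.48, adjusted p = 0.94) with BRD9. The limma fit gave 1.46 (SE 0.35, adjusted p = 0.00921) for BAF250A, and an adjusted p of 0.095 and 0.144 with 1 or the other BAF250A library left out. From the DESeq2 values the difference between the knockdowns was 1.45 (SE 0.64, adjusted p = 0.384, normal test), a test that treats the shared controls as separate. With the shared controls taken into account it passed (adjusted p = 0.0219), as it did in limma on all 6 libraries (1.44, SE 0.35, adjusted p = 0.0365) and on the 4 knockdown libraries alone (1.44, SE 0.19, adjusted p = 0.0076). With either BAF250A or either BRD9 library left out, the limma adjusted p of that difference was 0.191 to 0.395.

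Hdac4 (chr1:91928779-92195699, minus strand), a class IIa HDAC known to rise in denervated muscle, held 1022 and 372 reads in the scrambled, 1037 and 1080 in the BAF250A and 650 and 659 in the BRD9 libraries. Normalised, the scrambled libraries stood at 639 and 346, the BAF250A libraries at 1196 and 1292 and the BRD9 libraries at 707 and 754. The 3 groups did not overlap, with BAF250A highest and the scrambled libraries lowest. The authors' deposited table gave a log2 fold change of 1.41 (SE 0.48, adjusted p = 0.0148, Wald test) for BAF250A and 0.61 (SE 0.53, adjusted p = 0.532) for BRD9. The limma adjusted p for BAF250A was 0.0358. It did not pass without BAF250A library 1 (limma adjusted p = 0.219) or 2 (0.277), without either BRD9 library (0.0633 for each) or with scaling to all resolved reads (0.0564). Centring the fold changes on 18 housekeeping genes, which shifts all genes by 0.52, left 0.89 (DESeq2 Wald adjusted p = 0.135) and ended the call.

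Hdac5 (chr11:102194432-102230166, minus strand), a close relative of Hdac4 abundant in heart and muscle, held 6014 and 6833 reads in the scrambled, 7405 and 8127 in the BAF250A and 7290 and 4388 in the BRD9 libraries. At 8544 and 9721 normalised reads the BAF250A libraries were the highest, the scrambled libraries stood at 3762 and 6354, and the BRD9 libraries, at 7933 and 5024, overlapped the scrambled ones. It did not pass in the authors' deposited tables, with a log2 fold change of 0.95 (SE 0.45, adjusted p = 0.0972) for BAF250A and 0.43 (SE 0.51, adjusted p = 0.672) for BRD9.

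Hdac9 (chr12:34047580-34917095, minus strand), itself a MEF2 target, was the member called lower with both knockdowns and also the one whose control libraries differed most. It held 1289 and 161 reads in the scrambled, 85 and 100 in the BAF250A and 121 and 38 in the BRD9 libraries. Normalised, scrambled library 1 stood at 806 and library 2 at 150, against 98.1 and 120 with BAF250A and 132 and 43.5 with BRD9. All 4 knockdown libraries lay below both scrambled libraries, but 120 and 132 are close to 150. The authors' deposited tables gave log2 fold changes of -1.94 (SE 0.65, adjusted p = 0.0136, Wald test) for BAF250A and -2.22 (SE 0.73, adjusted p = 0.0191) for BRD9. The 5.39-fold gap between the scrambled libraries was wider than in 99.7% of the 2479 genes within 2-fold of its mean. In limma the 2 fold changes were -1.72 (adjusted p = 0.128) and -2.22 (adjusted p = 0.0866), and neither passed. Without scrambled library 1 the limma values were -0.47 (adjusted p = 0.559) and -0.96 (adjusted p = 0.275). The longest coding transcript of Hdac9 has 7940 bases, in the range where scrambled library 1 exceeded library 2: the median log2 ratio was 1.00 over the 20% of genes with the longest transcripts and -0.97 over the 20% with the shortest. The part of transcript length in the Hdac9 result was not tested.

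**Figure D2:**
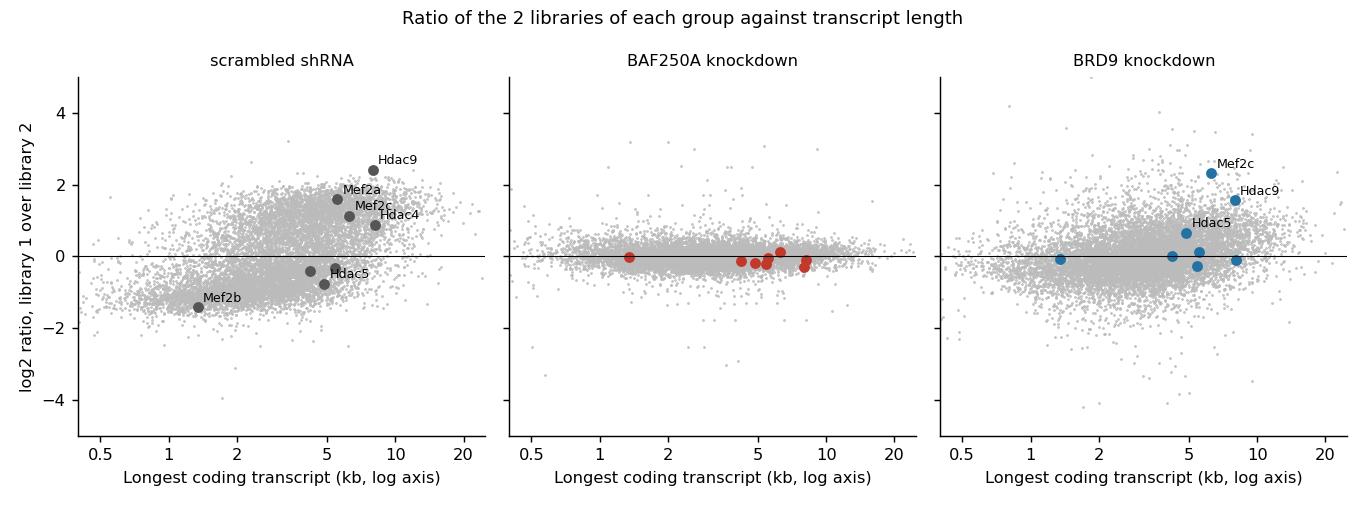
Log2 ratio of library 1 over library 2 of each group against the longest coding transcript in kilobases (log axis), grey for genes with a mean of 100 normalised reads or more and coloured points for the 8 members, named where the ratio is at least 0.5 in size. In the scrambled pair long genes lie above 0 and short genes below it, with Hdac9 at 2.42 and Mef2b at -1.42, and the BAF250A pair stays close to 0.

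Counted over libraries without a model, 6 of 8 members did not overlap between the BAF250A and scrambled libraries (3 higher, 3 lower), where 66.0% of 14072 genes did not (27.7% higher, 38.3% lower). For BRD9 and scrambled libraries it was 4 of 8 (1 higher, 3 lower), where 51.1% of genes did not overlap (21.9% higher, 29.2% lower), and between the knockdowns 7 of 8 (4 higher with BAF250A, 3 lower), where 58.5% did not (29.3% higher, 29.2% lower). The counts against the scrambled libraries lie near the share of all genes. The count between the knockdowns lies above that share, in a set of only 8 genes, and the gap was not tested.

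**Figure D3:**
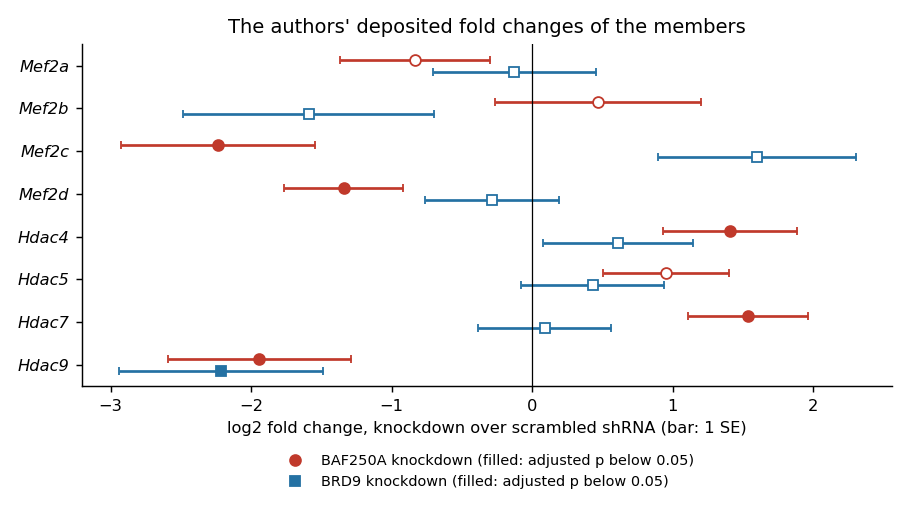
Log2 fold changes of the members over the scrambled shRNA in the authors' deposited tables, circles for BAF250A and squares for BRD9, filled where the adjusted p is below 0.05, with bars of 1 SE. The BAF250A values run from -2.23 for Mef2c to 1.54 for Hdac7, and Hdac9 lies near -2 in both tables.

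Levels within the families can be compared per kilobase of the longest coding transcript. In the scrambled libraries Mef2d led at 1266 and 1577 normalised reads per kb, and it made up 59.1% and 82.9% of the summed MEF2 level. Mef2c had the lowest mean of the 8 there, at 21.3 and 9.63 per kb, though in library 1 Mef2b, at 13.5, lay below it. Down the order in the scrambled libraries Mef2d, Hdac5, Hdac7 and Mef2a each overlapped the next, as did Hdac4, Hdac9, Mef2b and Mef2c, and the step from Mef2a to Hdac4 was the only one without overlap. With BAF250A knockdown the order was Hdac7, Hdac5, Mef2d, Mef2a, Hdac4, Mef2b, Hdac9 and Mef2c, and no neighbours overlapped. With BRD9 knockdown Hdac5 and Mef2d overlapped at the top and Mef2c, Hdac9 and Mef2b at the bottom.

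Summed per kb, the 4 MEF2 genes stood at 2142 and 1903 in the scrambled, 792 and 868 in the BAF250A and 1596 and 1675 in the BRD9 libraries. The 4 HDAC genes stood at 1757 and 2424, 4334 and 4823, and 2674 and 2058. The BAF250A libraries lay below all others in the first sum and above all others in the second. The HDAC sum was 0.82 and 1.27 times the MEF2 sum in the scrambled libraries, 5.47 and 5.56 times with BAF250A and 1.68 and 1.23 times with BRD9. These sums describe RNA, rest mostly on Mef2d, Mef2a, Hdac5 and Hdac7, and carry no test.

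**Figure D4:**
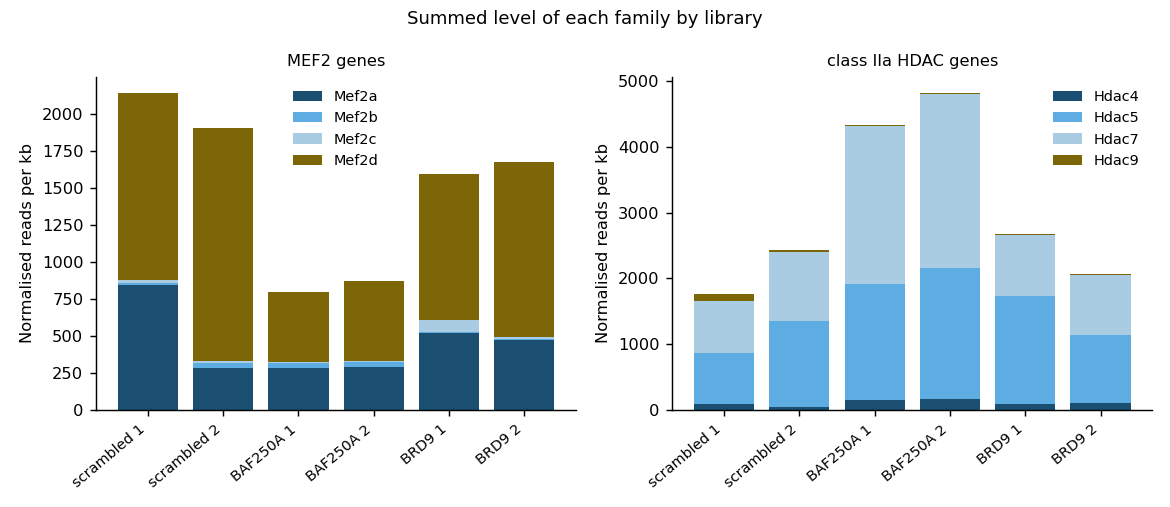
Normalised reads per kb of the longest coding transcript, stacked by gene, for the MEF2 genes and the class IIa HDAC genes in each of the 6 libraries. The BAF250A libraries have the shortest MEF2 bars (792 and 868) and the tallest HDAC bars (4334 and 4823).

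Of 22 muscle genes listed as MEF2 targets, the authors' deposited tables have 20 lower and 1 higher with BAF250A, and 3 lower and 2 higher with BRD9. The gene that did not pass with BAF250A was Myom1, named after its value was seen. With BRD9 Xirp2 (log2 fold change -4.65, SE 0.73), Ppargc1a and Hdac9 were lower, and Actn2 (2.53, SE 0.63) and Slc2a4 higher. Xirp2 and Actn2 were also named after their values were seen. The list's median log2 fold change was -3.18 with BAF250A and 0.42 with BRD9. Between the knockdowns 17 of 22 were lower with BAF250A and none higher, with a median difference of -3.33 against -0.0023 over all genes. Over all genes tested 17.5% were lower and 11.2% higher with BAF250A, and 9.33% and 5.11% with BRD9. Between the knockdowns 1.99% of all genes were lower with BAF250A and 0.552% higher. These shares stand beside the counts of each list below. The target list was drawn up with earlier results of these data known and includes Hdac9. Casq2, the calcium store protein of the sarcoplasmic reticulum, stood at 5173 and 11526 normalised reads in the scrambled, 286 and 270 in the BAF250A and 13506 and 8203 in the BRD9 libraries. Ckm, muscle creatine kinase, stood at 6805 and 23381, 282 and 366, and 11042 and 7351. Xirp1, an actin-binding repeat protein of muscle, stood at 5469 and 8467, 387 and 428, and 5236 and 5384. For these 3 genes both BAF250A libraries lay far below all others and the BRD9 libraries lay near the scrambled range. The log2 fold changes with BAF250A in the authors' deposited table were -4.66 (SE 0.49) for Casq2, -5.24 (SE 0.55) for Ckm, -3.89 (SE 0.44) for Xirp1 and -4.86 (SE 0.51) for Mymk, the membrane activator of myoblast fusion. Myog, the bHLH factor that acts with MEF2, had -1.94 (SE 0.53, adjusted p = 0.00156, Wald test) with BAF250A and 0.83 (SE 0.57, adjusted p = 0.394) with BRD9 in the authors' deposited tables. The gene that rose with both, Slc2a4, encodes the glucose transporter GLUT4 and stood at 6.26 and 40 normalised reads in the scrambled libraries, 104 and 110 with BAF250A and 310 and 96 with BRD9.

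**Figure D5:**
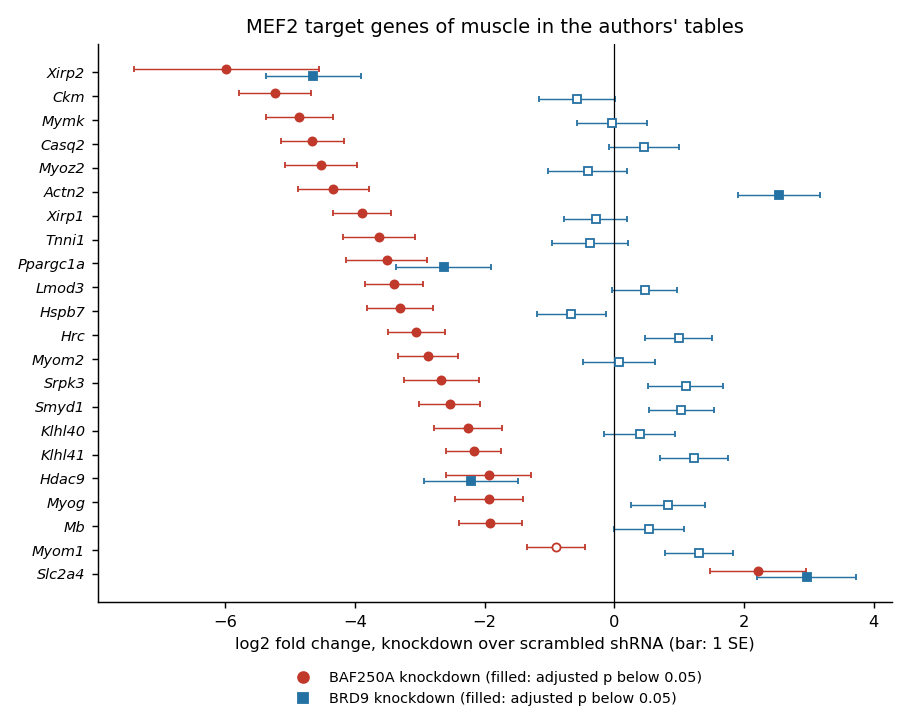
Log2 fold changes of 22 muscle genes listed as MEF2 targets in the authors' deposited tables, circles for BAF250A and squares for BRD9, filled where the adjusted p is below 0.05, with bars of 1 SE. With BAF250A knockdown 20 genes are called lower, with Slc2a4 called higher and Myom1 not called. The BRD9 values run from -4.65 for Xirp2 to 2.97 for Slc2a4, with 3 called lower and 2 higher.

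Markers of the state of the cultures were counted as well. Ckm and Actn2 stand in both the myotube marker list and the MEF2 target list, so the lists are not independent. By the authors' deposited tables each of 5 myotube markers fell with BAF250A, and 1 rose with BRD9. The 4 of them with whole reads summed to 26426 and 52349 normalised reads in the scrambled, 4044 and 4122 in the BAF250A and 55750 and 26427 in the BRD9 libraries. Of 4 smooth muscle markers 3 rose with BAF250A and none with BRD9, and the 3 with whole reads summed to 3133 and 3618, 34306 and 38947, and 4032 and 14397. Of 4 fibroblast markers 2 rose with BAF250A and 1 with BRD9, and the 3 with whole reads summed to 2809 and 1244, 3507 and 3110, and 6162 and 1684. The sum leaves out Col1a1, whose log2 fold change was 4.58 (SE 0.41) with BAF250A and 2.60 (SE 0.48) with BRD9, called higher in both. Of 4 markers of undifferentiated or reserve cells 1 rose and 1 fell with each knockdown, with sums of 4368 and 3319, 6958 and 6414, and 2824 and 5183. Id3 rose with BAF250A, Pax7 rose with BRD9 and Myf5 fell with both. Pax7 alone stood at 56.3 and 37.2 normalised reads in the scrambled, 43.8 and 59.8 in the BAF250A and 842 and 1103 in the BRD9 libraries. Of 4 osteoblast markers 1 rose and 1 fell with BAF250A and 1 fell with BRD9, with sums of 1306 to 2433, 2158 to 2305 and 1021 to 1340. The fat cell markers summed to 95.1 to 103, 145 to 235 and 123 to 267, and those of endothelium, macrophage and neuron to 341 to 356, 29.9 to 30.0 and 25.2 to 38.1. Adipoq in the fat cell list, and Adgre1 and Snap25 in the list of endothelium, macrophage and neuron, had at most 3 reads over the 6 libraries. In a bulk sample fewer myotubes and less of a transcript per myotube cannot be told apart, and the part of cell state in the results for the 8 genes was not tested.

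The kinases that send class IIa HDACs out of the nucleus did not move as 1 group. With BAF250A 3 of 20 rose and 3 fell in the authors' deposited table, and none passed with BRD9. The BAF250A count lies near the share of all genes, of which 11.2% were higher and 17.5% lower. The calcium/calmodulin kinase genes parted: Camk2a fell from 3115 and 5264 to 443 and 414 normalised reads with BAF250A, and Camk2b from 116 and 292 to 6.92 and 4.78. Camk1g rose from 640 and 695 to 1999 and 2414, and Camk2g from 3011 and 2784 to 5996 and 5928. With BRD9 Camk2a stood at 4322 and 1960, Camk2b at 66.4 and 91.6, Camk1g at 609 and 1325 and Camk2g at 8132 and 5810. The Camk2g log2 fold change was 1.30 (SE 0.48, adjusted p = 0.0503, Wald test) with BRD9 and 1.13 (SE 0.42, adjusted p = 0.0275) with BAF250A. Between the knockdowns the DESeq2 values of Camk2a differed by -2.78 (SE 0.71, adjusted p = 0.0056, normal test) and Camk2b by -3.50 (SE 0.95, adjusted p = 0.0122), which are the 2 of 20 that passed.

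Calcineurin dephosphorylates MEF2 and is held in check by the Rcan proteins and by Z-disc calsarcins. Of 10 genes of this list 2 rose and 3 fell with BAF250A, and 1 rose and 2 fell with BRD9, in the authors' deposited tables. Myoz2, calsarcin-1, fell with BAF250A from 853 and 2498 to 62.3 and 57.4 normalised reads and stood at 1662 and 649 with BRD9. Rcan2, an inhibitor of calcineurin, stood at 1404 and 586 in the scrambled, 1357 and 1165 in the BAF250A and 189 and 160 in the BRD9 libraries. The difference of its DESeq2 values between the knockdowns was 2.77 (SE 0.76, adjusted p = 0.0158, normal test). Ppp3cc, a catalytic subunit, rose with both, from 256 and 253 to 833 and 732 with BAF250A and 755 and 651 with BRD9.

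Few of the remaining partners passed in the authors' deposited tables. Of 9 MEF2 kinases of the p38 and ERK5 modules 1 rose with BAF250A, Map2k6, from 218 and 189 to 549 and 522 normalised reads, and none passed with BRD9. Of 8 genes for 14-3-3 proteins and the exportin, Ywhaq rose with BAF250A (log2 fold change 1.68, SE 0.42, in the authors' deposited table) and none passed with BRD9. The Ywhaq value with BRD9 was 1.28 (SE 0.49, adjusted p = 0.0566, Wald test). Of 9 corepressor genes Tbl1x, a subunit of the NCoR complex, rose with BAF250A (1.26, SE 0.46, in the authors' deposited table). Hdac3, whose product supplies the deacetylase activity of that complex, did not pass, at 0.10 (SE 0.44) with BAF250A and 0.05 (SE 0.51) with BRD9 in the authors' deposited tables. Among 7 other HDAC genes Hdac1 rose with both knockdowns, from 738 and 1198 normalised reads to 2418 and 2690 with BAF250A and 2712 and 4242 with BRD9. Of 11 coactivators Ppargc1a, the PGC-1α gene, fell with both, from 487 and 192 to 16.2 and 33.5 with BAF250A and 78.3 and 11.4 with BRD9. Vgll2, a muscle cofactor of TEAD and MEF2, rose with both, from 118 and 152 to 292 and 382 and to 780 and 820.

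Genes linked to HDAC4 in denervated muscle, and factors that act beside MEF2, were also counted. The first list mixes directions, since the acetylcholine receptor subunits are known to rise in denervated muscle with HDAC4, so its count has no single meaning. Of its 7 tested genes 5 fell with BAF250A and 1 with BRD9 in the authors' deposited tables, with a median of -1.65 and 0.13. The 5 were Pygm, Ccn2 and the receptor subunits Chrna1, Chrnd and Chrng. Pygm, muscle glycogen phosphorylase, stood at 2974 and 8127 normalised reads in the scrambled, 952 and 933 in the BAF250A and 12860 and 5933 in the BRD9 libraries. Chrnd, an acetylcholine receptor subunit, stood at 6154 and 13396, 1320 and 1512, and 11318 and 8533. Of 10 other MADS-box genes and partners 1 rose and 3 fell with BAF250A and 1 rose and 1 fell with BRD9. Tead4, a partner factor on muscle promoters, fell from 1344 and 2530 to 226 and 279 with BAF250A and stood at 4486 and 2853 with BRD9. Srf, the founding MADS-box factor, did not pass, at -0.52 (SE 0.44) with BAF250A and -0.07 (SE 0.50) with BRD9 in the authors' deposited tables. Of the 9 and 8 tested growth and stress genes known to respond to MEF2, 1 rose and 1 fell with BAF250A (Dlk1 and Egr1) and 1 rose with BRD9 (Klf2). Of 6 splicing regulators of the muscle exon of Mef2d, Rbfox1 fell with BAF250A, from 318 and 203 to 34.6 and 21.5 normalised reads, and Rbm24 rose with BRD9, from 216 and 132 to 4551 and 5866. Exon usage of Mef2d was not analysed here.

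The genes most like each called member were found as the 3 nearest in the plane of the 2 deposited log2 fold changes, among the 10906 genes whose deposited mean reached 100 in each. For Mef2c these were Art1 (-2.28 with BAF250A and 1.56 with BRD9 in the authors' deposited tables), Adgrl3 and Mypn, a Z-disc protein. For Mef2d they were Scamp5, Snhg17 and Rab3il1, for Hdac4 Fkbp1b, Bhlhe40 and Cir1, and for Hdac9 Thoc2l, Prrg2 and Ttc14. For Hdac7 they were P4ha2, Ifitm1 and Rps6ka1. The likeness is over 2 comparisons that share their controls, and it describes position only.

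Where the annotation has another gene on member exons, the counts are uncertain because the sources used here do not state whether strand was used. On the opposite strand these are Lysmd4 for Mef2a, 1700113A16Rik for Mef2d, Gm26720 for Hdac4 and Slc48a1 for Hdac7. On the same strand they are Mir8101 for Hdac5 and, in the GENCODE but not the RefSeq gene, Borcs8 for Mef2b. Sequence shared with other genes was small: of the 31-base words of each member's transcripts at most 2.92% occurred in another gene.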

How the data were processed

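RNA-seq of 6 C2C12 libraries was used, 2 in each of 3 groups, harvested 48 h after induction. Per the submitters' processing notes, HISAT, StringTie, Bowtie, RSEM and DESeq2 were used with build mm10; the role of each, their versions and the use of strand are not given in the sources used here. Per the file headers, the authors deposited for each knockdown against the scrambled shRNA a mean normalized signal (reads divided by DESeq2 size factors, averaged over 4 libraries), a log2 fold change with its SE, a Wald score, and a p-value with its adjusted form. A positive fold change is higher in the knockdown.

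The main tests are the authors' deposited adjusted p and, for the difference between the knockdowns, a two-sided normal test on the difference of both fold changes with their SEs, with Benjamini-Hochberg adjustment over 16311 genes. The design had been laid out for tables without values per library. Whole reads per library were then recovered for 26682 genes (98.2%). They came from the mean, the fold change and its SE, given the normal prior (SD 2.17 and 1.89) that both tables imply. At low means the mean alone was used. Of the other genes 493 lay above the size limit and 4 had no solution. The recovered reads are computed values, not counts as the authors deposited them. The scrambled libraries were identified as the pair with equal reads in both tables, at 400 of 400 genes. Reads were divided by median-of-ratios size factors and fitted with limma 3.58.1 (voom, R 4.3.3) over genes with a mean of 10 reads or more; Python 3.11.15 did the rest. The recovery and the tests were tried on simulated data, with no outcome given here. These trials are not taken as a check on the low means of Mef2b and Mef2c, where the mean alone was used. Nor are they taken as a check on the limma p-values for scrambled libraries that differ along transcript length. Precision is set by 2 libraries per group.

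All members are named; from each pathway list the text names up to 4 called genes with the largest absolute Wald score and up to 2 for their textbook role, and for each called member its 3 nearest genes. The members and lists were chosen with earlier results of these data known.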

Additional observations from a re-analysis of the deposited data

Results flagged for a closer look

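Mef2c was singled out because its response differed between the knockdowns: the log2 fold change over the scrambled shRNA was -2.23 with BAF250A and 1.60 with BRD9, a difference of -3.83 (95% interval -5.76 to -1.90, adjusted p = 0.00657, normal test on the DESeq2 values). The BAF250A libraries held 16 and 14 reads and the BRD9 libraries 477 and 90. Both comparisons use the same scrambled libraries.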

How the results depend on the processing

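No paired analysis was possible because the letters A and B cannot be tied to the recovered libraries. The limma settings and the left-out libraries were chosen after seeing the data. For BAF250A, where 5 members passed, 3 passed at an adjusted p below 0.01 and 0 with Bonferroni or an empirical null. Limma on the recovered reads gave 3, as it did with upper quartile scaling, for genes with a mean of 100 reads or more and with no filter; limma-trend gave 4, with Mef2c among them, scaling to all resolved reads 2 and Bonferroni 0. For BRD9, where 1 passed, each of these settings gave 0, as did limma-trend. For the difference, where 1 passed, 2 passed, Mef2c and Hdac7, with the controls treated as shared, in limma, with upper quartile scaling, with limma-trend and for genes with a mean of 100 reads or more. In the knockdown libraries alone 2 passed, Hdac7 and Mef2d, without Mef2c, and scaled to all resolved reads Hdac7 passed without Mef2c. 0 passed with Bonferroni in either test, with no filter on reads, and for genes with a deposited mean of 100 or more, which leaves out Mef2c. With 1 library left out the counts ran from 0 to 6 for BAF250A, 0 to 3 for BRD9 and 0 to 2 for the difference; the lone library of a group is then assumed to vary like the others.

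Values that changed direction belong to comparisons in which that member had not passed. Centring on housekeeping genes, a shift of 0.52 for BAF250A and 0.45 for BRD9, gave -0.0501 for Mef2b with BAF250A, and -0.0163 for Hdac5 and -0.36 for Hdac7 with BRD9. For BAF250A that centring also called 5 members, with Mef2a in place of Hdac4. With BRD9 Mef2a was 0.00046 in limma and with its Bonferroni, 0.0545 scaled to all resolved reads, 0.0197 in limma-trend and 0.0015 for genes with a mean of 100 reads or more, and Hdac7 was -0.0077 with upper quartile scaling. With 1 library left out Mef2a ran from -1.55 to 0.0389 and Mef2b from -0.18 to 1.27 with BAF250A, and with BRD9 Mef2a from -0.78 to 0.82, Hdac5 from -0.0082 to 0.75 and Hdac7 from -0.18 to 0.21. The difference for Hdac9 ran from -0.28 to 1.30. The causes were not tested. Depth limits Mef2b and Mef2c most, with 8 to 54 and 14 to 477 reads.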
